A study of Mus musculus with 3 samples.

Results

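Odorant receptors are G protein-coupled receptors that olfactory sensory neurons of the nose use to detect volatile molecules. The genes form one of the largest families of the mouse genome, lie in clusters on many chromosomes, and are kept in silent chromatin in most cell types. A mature olfactory neuron chooses a single receptor allele, and signals through the G protein Golf, adenylyl cyclase 3 and a cyclic nucleotide-gated channel. The data described here are the RNA levels at these clusters in the dentate gyrus, the part of the hippocampus where granule neurons lie densely packed.

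The rows examined are those of the deposited table whose symbol is Olfr followed by a digit, on chromosomes 1 to 19. They number 1114 of the 24458 rows, where a row is a line of the table named for a gene. No measured value entered this choice. The rows were grouped by chromosome and into runs of consecutive receptor rows, in the order of the table. A run of 10 or more rows is called a cluster, and there were 29 clusters with 714 rows. The first 5 and last 5 rows of a cluster are its edges, 290 rows in all, and the 424 rows between them are interiors. A further 353 rows stood in 78 short runs of 2 to 9 rows, and 47 were lone, with no receptor row next to them in the table. The order of the table is not strictly that of mm9 starts. A lone row can therefore lie near another receptor locus, as Olfr995 does to Olfr994 on chromosome 2. A further 6 rows with such symbols lay outside these chromosomes and were left out.

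The study as a whole is about open chromatin and gene expression after neurons are activated. The 3 libraries used here carry the label E24 and the replicate numbers 1, 2 and 3. Each was made from total RNA of the microdissected dentate gyrus of 1 adult C57BL/6 mouse, aged 8 weeks, so the replicates are animals. The deposited table is named with the terms WT and ECT. The labels spell out neither these nor E24, and they give no treatment, genotype or sex. With 1 group, no comparison between conditions was made. In whole tissue, fewer cells of a type and less RNA per cell cannot be told apart.

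RPKM corrects a row's reads for how long the gene is and how many reads the library gave, and the values summed to 350942 to 384523 per library. Read depth is unknown, so no counting error can be given. For other autosomal rows at 1 RPKM or more, a similar value (natural logarithms within 0.1) stood within 10 rows in another library in 67.8% of cases and at the same row in 22.7%, against 37.6% in windows 50 rows away. For cluster rows the shares were 28.4%, 2.99% and 35.4%. Rows near a cluster row are mostly receptor rows listed at 0, while those 50 rows away often lie outside the cluster. Comparing these shares cannot tell whether values in clusters are displaced. A gene's name therefore stands here for its row of the table, and groups of neighbouring rows carry the results. Of 8 granule neuron marker rows, 4 reached 1 RPKM in each library and 1 in none, and Prox1, a transcription factor that defines granule neurons, held 1.58, 39.3 and 0 RPKM. Within 5 rows of the Prox1 row the highest value was 39.5, 39.3 and 40.5 RPKM.

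The sequences at the starts of receptor genes are described first. Start regions, 250 bases before to 50 after the annotated start (RefSeq, GRCm38.p6), were found for 921 of 1111 receptor symbols, as 925 sequences. Their median GC content was 35.0%, against 52.7% for all 32851 start regions of the reference, and their median number of CpG dinucleotides was 1 against 7. The TATA-box letters TATAAA, on either strand, occurred in 41.0% of receptor regions and 13.6% of all. TAATTA, the core letters that many homeodomain factors bind, which reads the same on both strands, occurred in 18.8% and 5.29%. By place in a run the share with TATAAA was 49.3% for interiors, 41.5% for edges, 30.2% for short runs and 40.0% for lone rows, and the median GC content was 33.3%, 34.7%, 38.3% and 41.2%. In 72.5% of receptor regions the annotated start is a start codon, so those windows lie upstream of the coding sequence and not of a mapped transcription start. Both words consist of A and T alone, and the part of the lower GC content in their shares was not tested. A match of letters is not a binding site.

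A few of these regions are printed to show what such a start looks like. The rows of Olfr312, Olfr460, Olfr556 and Olfr1504 held similar values in all 3 libraries (given further on), and they were chosen for printing after those values were seen. Olfr16, also called MOR23, and Olfr73, also called mOR-EG, are well-studied receptors whose rows were listed at 0 in every library. Capitals mark TATAAA or TAATTA on either strand, which may overlap each other (TATAAA on the other strand reads TTTATA).
Olfr312 (chr11:58830906-58831205, plus strand): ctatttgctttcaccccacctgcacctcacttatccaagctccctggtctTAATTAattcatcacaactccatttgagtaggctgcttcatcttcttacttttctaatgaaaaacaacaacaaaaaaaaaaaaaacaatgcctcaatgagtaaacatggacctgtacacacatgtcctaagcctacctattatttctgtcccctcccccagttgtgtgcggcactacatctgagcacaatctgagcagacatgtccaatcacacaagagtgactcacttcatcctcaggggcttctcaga
Olfr460 (chr6:40571138-40571437, plus strand): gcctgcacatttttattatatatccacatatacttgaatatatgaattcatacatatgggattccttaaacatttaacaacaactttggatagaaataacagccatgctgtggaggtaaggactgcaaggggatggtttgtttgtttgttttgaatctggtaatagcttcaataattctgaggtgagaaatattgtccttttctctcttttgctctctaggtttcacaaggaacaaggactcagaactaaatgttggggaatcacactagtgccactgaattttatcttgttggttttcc
Olfr556 (chr7:102669651-102669950, plus strand): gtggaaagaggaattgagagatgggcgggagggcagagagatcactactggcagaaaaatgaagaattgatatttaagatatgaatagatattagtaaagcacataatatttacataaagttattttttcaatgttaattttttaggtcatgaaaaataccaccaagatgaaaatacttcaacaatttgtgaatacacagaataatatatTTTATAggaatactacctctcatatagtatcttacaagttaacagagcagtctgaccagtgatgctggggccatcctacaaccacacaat
Olfr1504 (chr19:13888159-13888458, minus strand): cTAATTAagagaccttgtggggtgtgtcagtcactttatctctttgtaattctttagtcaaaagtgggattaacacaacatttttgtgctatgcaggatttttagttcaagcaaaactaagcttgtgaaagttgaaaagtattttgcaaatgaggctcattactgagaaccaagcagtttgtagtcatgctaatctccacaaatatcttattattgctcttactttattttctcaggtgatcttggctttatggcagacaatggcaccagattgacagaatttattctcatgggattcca
Olfr16 (chr1:172956518-172956817, plus strand): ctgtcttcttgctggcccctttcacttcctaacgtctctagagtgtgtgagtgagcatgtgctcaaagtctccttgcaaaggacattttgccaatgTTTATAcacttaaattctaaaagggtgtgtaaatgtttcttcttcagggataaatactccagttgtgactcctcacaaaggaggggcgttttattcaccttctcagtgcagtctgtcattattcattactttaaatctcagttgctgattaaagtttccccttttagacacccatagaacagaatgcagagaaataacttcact
Olfr73 (chr2:88035088-88035387, minus strand): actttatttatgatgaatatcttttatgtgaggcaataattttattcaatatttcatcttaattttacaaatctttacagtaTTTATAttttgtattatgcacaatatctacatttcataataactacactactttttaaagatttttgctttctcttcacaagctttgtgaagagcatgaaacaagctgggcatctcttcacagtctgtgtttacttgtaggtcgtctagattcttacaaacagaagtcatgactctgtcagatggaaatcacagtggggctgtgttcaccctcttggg
All 6 regions hold few CpG dinucleotides, from 0 in Olfr460 and Olfr1504 to 2 in Olfr16.

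Taken over all chromosomes, odorant receptor rows were seldom at 1 RPKM or more, least often in cluster interiors and most often where they stood alone. Rows at 1 RPKM or more made up 1.65%, 1.42% and 2.36% of interior rows in replicates 1, 2 and 3. At the edges the shares were 5.17%, 4.83% and 5.17%, in short runs 8.22%, 8.50% and 9.35%, and among lone rows 17.0%, 23.4% and 25.5%. No library of one class overlapped the next class in this order. The nearest 5 other rows on each side of a cluster, 217 rows in all, stood at 31.8%, 30.9% and 27.2%, and all other autosomal rows at 53.6%, 52.6% and 52.8%. Matches between libraries were counted as above for rows at that level. The same row of another library held a similar value in 4.35% of interior, 2.27% of edge, 7.61% of short-run and 9.68% of lone cases. Within 10 rows the shares were 28.3%, 28.4%, 46.7% and 56.5%, and in windows 50 rows away 31.5%, 37.5%, 32.6% and 27.4%. The part of displacement in the order of the classes was not tested.

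The differences between these classes had the same sign in all 3 libraries. Interiors minus edges came to -3.25 ± 0.381 percentage points (SD, n = 3), and the mean log2(RPKM + 1) differed by -0.098 ± 0.014. Against lone rows the interiors differed by -20.2 ± 4.21 points and the edges by -16.9 ± 4.49 points. Clusters differed from their flanking rows by -26.8 ± 2.74 points, and all receptor rows from all other autosomal rows by -47.3 ± 0.908 points. Each of these means exceeded the SD between libraries, but the exact sign-flip permutation test (two-sided) gave p = 0.25 for every difference, the smallest p that 3 animals allow. Without rows listed at 0 in every library, interiors minus edges came to 0.087 in mean log2(RPKM + 1), the other direction. With rows placed in the order of their mm9 starts, edges minus lone rows came to -26.1 points.

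**Figure D1:**
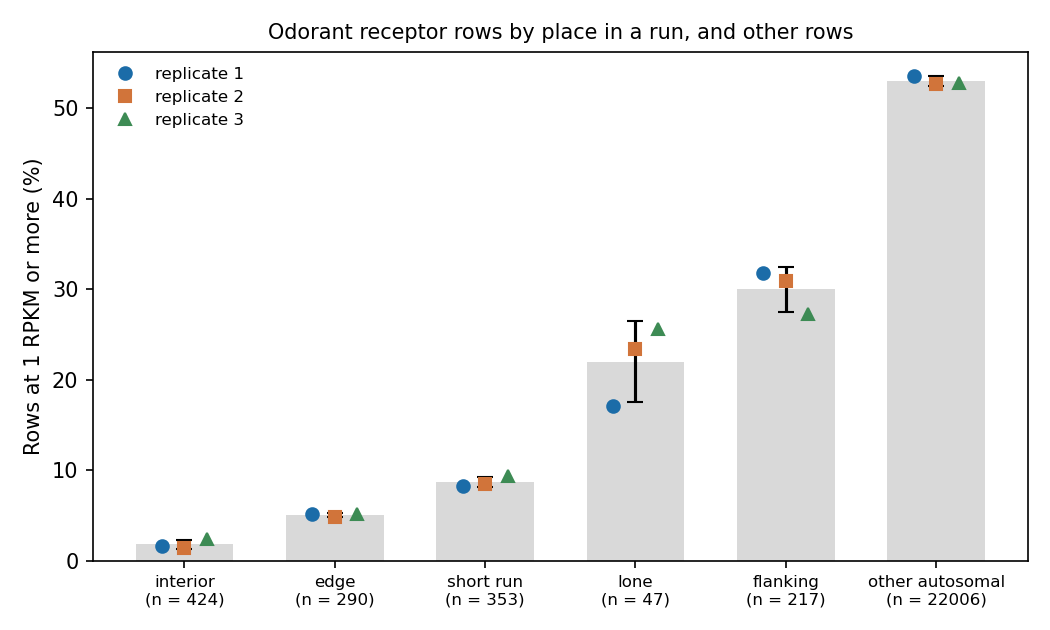
Share of rows at 1 RPKM or more (vertical axis, percent) for odorant receptor rows by place in a run, for the 5 non-receptor rows on each side of the clusters and for all other autosomal rows. Bars are means of 3 libraries, error bars SD, and symbols single libraries, and the share is lowest in cluster interiors, at 1.81% on average, and 22.0% among lone rows.

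Most receptor rows were listed at 0. Of the 1114 rows, 872 (78.3%) were listed at 0 in all 3 libraries, against 14.4% of other autosomal rows. Exact zeros made up 97.3% ± 0.828 of interior rows, 92.2% ± 0.718 of edge rows, 81.4% ± 1.14 of short-run rows and 65.2% ± 1.23 of lone rows (SD, n = 3). Whether a listed 0 is an absence of reads or a failed estimate is not known from the table. Receptor loci are short, with a median of 945 bp against 15398 bp for other autosomal rows, and 87.0% were under 1100 bp, near the length of the single coding exon. Many receptors are close paralogs, and how reads shared between copies were counted is not given in the sources used.

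The share at 1 RPKM or more was lower in rows at least 10 deep than nearer the ends. From the 1st to the 5th row inside an end, the share at 1 RPKM or more was 4.02% to 5.75% on average. Rows with 5 to 9 receptor rows between them and the outside had a share of 3.49% ± 1.51 of 191 rows, with 5, 5 and 10 rows at that level in the 3 libraries. Of the 233 rows with at least 10 receptor rows on each side, 2, 1 and 0 were at 1 RPKM or more, a mean of 0.429% ± 0.429. Among these, no further fall with depth was seen, with 0.407% at 10 to 14 rows, 0% at 15 to 19 and 0.623% at 20 or more. Rows at least 10 deep occur only in the longer clusters, and the part of cluster length or chromosome in the difference was not tested. Outside the clusters the share also changed with distance. The nearest non-receptor row stood at 15.5% ± 1.03, those 2 to 5 rows away at 29.8% to 33.3%, and those 6 to 10 rows away at 43.2% to 54.4%. Receptor rows at these places were left out, so each position rests on a different set: 56, 22 to 30 and 27 to 33 rows. Some clusters adjoin in mm9. On chromosome 9, Olfr888 to Olfr911-ps1 ends at 38332254 and Olfr913 to Olfr981 starts at 38345467. The matches between libraries were counted for these rows too. Each level of at least 1 RPKM was looked up in the other libraries as above. The same row held a similar value for 17.9% of flanking rows and 2.27% of edge rows, and a row 1 to 10 places away for a further 34.6% and 26.1%. For reference, windows 50 rows away held a similar value for 34.0% and 37.5%. The part of displacement in the low but nonzero level of the edges was not tested.

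**Figure D2:**
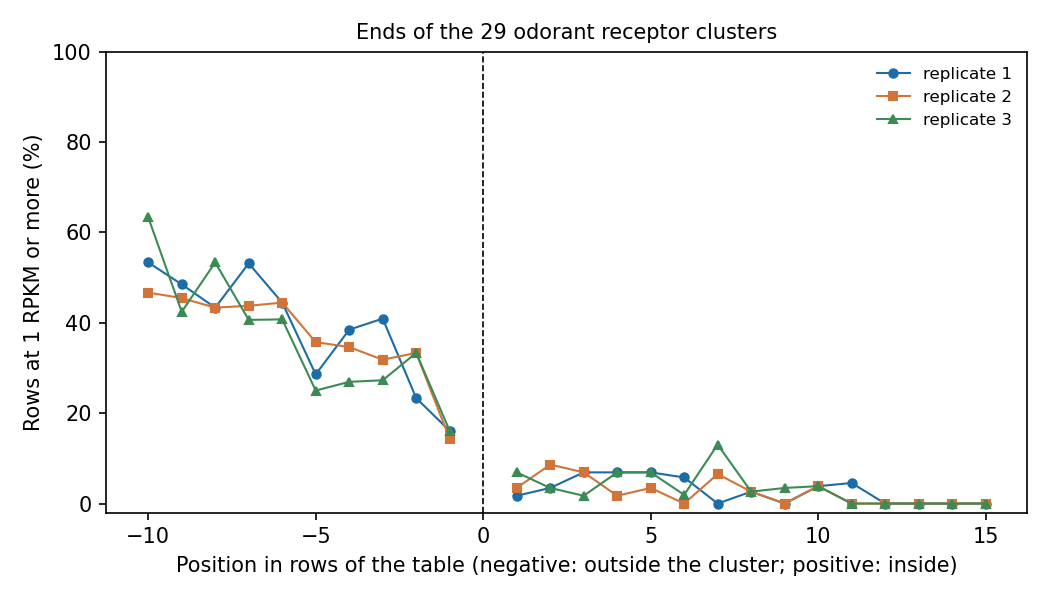
Share of rows at 1 RPKM or more (vertical axis, percent) by position relative to the ends of the 29 clusters (horizontal axis, rows of the table, negative outside and positive inside), with 1 line per library. The share drops from 43.2% or more at 6 to 10 rows outside to 15.5% next to the cluster, and no library has a row at that level at positions 12 to 15 inside. Receptor rows outside a cluster are left out, so the set of rows differs between positions.

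All 29 clusters were below the mean of autosomal rows. The autosomes were divided into the 29 clusters and 898 blocks of up to 25 other rows, and the offset of each from the mean of all autosomal rows was tested over the 3 libraries. With limma and Benjamini-Hochberg adjustment, 29 of 29 clusters were lower and 0 higher, where 37.3% of all 927 segments were lower. Without rows listed at 0 in every library, all 25 clusters that could still be tested lay below the mean, and 16 passed (highest limma adjusted p 0.361). With all rows kept, adjusted p in limma ran from 3.59e-05 to 0.00114. The 4 clusters listed at 0 throughout share the lowest offset. Their offset and its spread are those of the autosomal mean alone, so their p holds no measurement of the cluster. The test asks whether an offset repeats between animals, and many segments pass it. The median over clusters was -1.79 in log2(RPKM + 1), against 0.09 over all segments, with a range from -1.92 to -1.56. Of the 898 other blocks, 37 lay as low as the highest cluster, and 15 of these held at least 5 odorant or vomeronasal receptor rows.

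The 3 longest clusters all lay below the median cluster. On chromosome 2 from 88114266 to 90241831 (mm9), the cluster from Olfr1179 to Olfr1274-ps held 87 rows, 85 of them listed at 0 throughout. Its mean log2(RPKM + 1) was 0.01, 0.04 and 0.07 in the 3 libraries. The rows next to it in the table include Ndufs3, a subunit of respiratory complex I, with 170.3, 94.3 and 171.4 RPKM, and Mtch2, a mitochondrial outer membrane protein, with 116.8, 174.5 and 92.4 RPKM. The same chromosome from 85708751 to 87298268 carries the 78 rows from Olfr1022 to Olfr1126, with means of 0.05, 0.06 and 0.12. The third in length, 61 rows from Olfr913 to Olfr981 on chromosome 9 from 38345467 to 39830912, had means of 0.04, 0.20 and 0.05. Tmem225, a transmembrane protein gene whose row flanks that cluster, held 1201.7, 0.0859 and 0.128 RPKM. Within 5 rows of it the highest value was 1201.7, 18.7 and 976.0 RPKM, so replicate 2 alone had no such value there.

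Every row of 4 clusters was listed at 0 in all 3 libraries. These were Olfr153 to Olfr1166 on chromosome 2 (34 rows), Olfr310 to Olfr292 on chromosome 7 (15 rows), Olfr888 to Olfr911-ps1 on chromosome 9 (21 rows) and Olfr392 to Olfr399 on chromosome 11 (10 rows). In 3 further clusters no row reached 1 RPKM in any library. One of them, the 30 rows from Olfr110 to Olfr136 on chromosome 17 from 37629413 to 38473042, adjoins the major histocompatibility region, and its means were below 0.01 in every library. At the other end, Olfr151 to Olfr883 on chromosome 9, with 10 rows and so no interior, had the highest mean, 0.62, 0.46 and 0.00. The SD of a cluster's mean between libraries ran from 0 to 0.35, with a median of 0.09. The largest SD, 0.35, belonged to Olfr1448 to Olfr1484 on chromosome 19, at 0.06, 0.07 and 0.67.

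**Figure D3:**
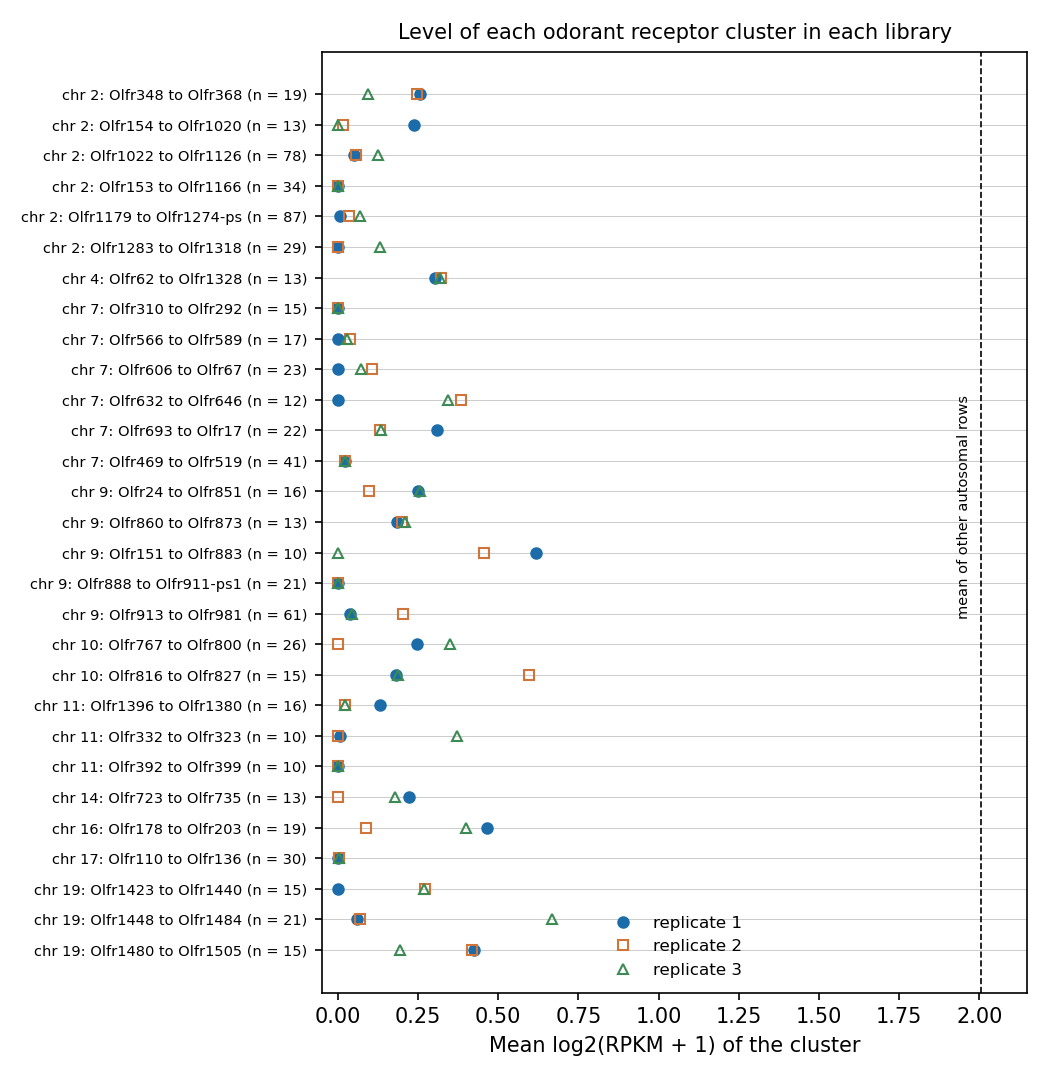
Mean log2(RPKM + 1) (horizontal axis) of each of the 29 clusters (vertical axis, by chromosome, with the number of rows) in each library, 1 symbol per library. The dashed line is the mean of other autosomal rows, and the highest single cluster value is 0.67.

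By chromosome, receptor rows were found on 16 of the 19 autosomes and clusters on 10. Chromosome 2 carried most, 290 rows, of which 260 stood in 6 clusters. Its receptor rows were at 1 RPKM or more in 2.53% ± 0.199 of cases (SD, n = 3), beside 53.6% ± 0.503 for its other rows. Chromosome 7 had 236 rows with 5.23% ± 0.647, and chromosome 9 had 136 rows with 4.90% ± 0.425. The shares on chromosomes 10, 11, 14, 17 and 19, which also hold clusters, lay between 4.67% and 7.58%, and those on chromosomes 4 and 16 were 9.33% ± 2.31 and 10.3% ± 2.56.

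Chromosomes without a cluster had few receptor rows and wider shares. The 2 receptor rows of chromosome 3 are both lone, and 2, 1 and 2 of them were at 1 RPKM or more. On chromosome 8, 1, 2 and 3 of 5 rows were at that level, and on chromosome 15, 3, 2 and 2 of 9 rows. Chromosome 6, with 28 rows in short runs or alone, stood at 10.7% ± 3.57, chromosome 1, with 29 rows, at 5.75% ± 1.99, and chromosome 13, with 14 rows, at 2.38% ± 4.12. Within chromosome 2, interiors had 2, 1 and 1 of 200 rows at 1 RPKM or more, and within chromosome 7, 0, 1 and 1 of 70. On chromosome 9 the interiors had 1, 2 and 2 of 71 rows, and the edges 5, 3 and 2 of 50. On chromosomes 16 and 4 the order was reversed on few rows. Interiors stood at 14.8% of 9 rows on chromosome 16 and 11.1% of 3 rows on chromosome 4, and edges at 6.67% of 10 rows on each. On chromosome 17 both were at 0. Lone rows stood below short runs on chromosomes 1, 11, 13, 15 and 17, with 1 to 5 lone rows each. They stood above short runs on the other chromosomes that have both.

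**Figure D4:**
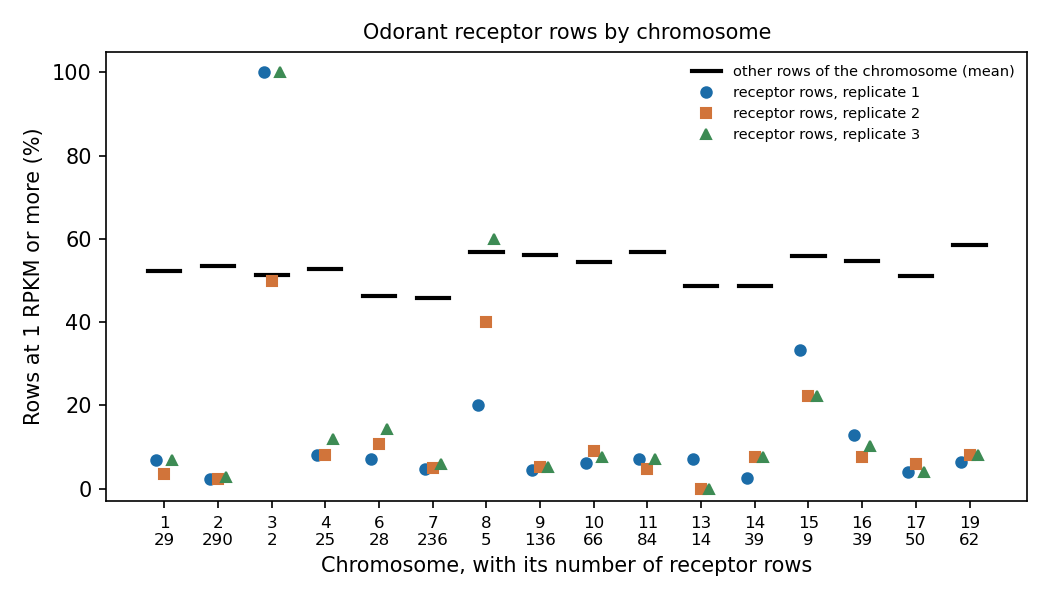
Share of odorant receptor rows at 1 RPKM or more (vertical axis, percent) on each chromosome that carries them, with the number of receptor rows under the chromosome, 1 symbol per library. Black bars are the mean share of the other rows of the chromosome, and in each library receptor rows lie below them except on chromosome 3 in replicates 1 and 3 and on chromosome 8 in replicate 3.

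Chromosome 7 also carries the class I receptors, a group related to fish receptors that surrounds the beta-globin genes. The clusters Olfr606 to Olfr67 (23 rows, 110590654 to 110940344) and Olfr632 to Olfr646 (12 rows, 111085896 to 111255733) lie on either side of those genes. Their means were 0.00, 0.11 and 0.07, and 0.00, 0.39 and 0.35, in the 3 libraries. Between them, the beta-globin rows Hbb-b2 and Hbb-b1 held 13.3, 0 and 5.01 RPKM and 0, 0 and 10.4 RPKM. Hbb-bs, Hbb-bh1 and Hbb-y were listed at 0 throughout, and Hbb-bh2 held 1.79 RPKM in replicate 2 and 0 in the others. The Hbb-bs locus, 110975037 to 110976442, is nearly that of Hbb-b1, 110975046 to 110976443, so these 2 rows are not separate loci. Next to the globin rows, Olfr67 at the edge of the first cluster held 0, 4.62 and 2.05 RPKM. In the second cluster, Olfr632 held 16.6 RPKM in replicate 3 and Olfr635 held 23.5 RPKM in replicate 2. No globin row was above 0 in all 3 libraries, and a part of blood RNA in these receptor values was not tested.

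Values at single receptor rows seldom repeated between libraries. In all, 154 receptor rows reached 1 RPKM somewhere, 127 of them in 1 library, 18 in 2 and 9 in all 3. In interiors the numbers were 21, 1 and 0, at edges 37, 2 and 1, in short runs 57, 10 and 5, and among lone rows 12, 5 and 3. Of interior values at 1 RPKM or more, the other library was also at that level at the same row in 4.35% of cases, against 11.4% at edges, 27.2% in short runs, 45.2% for lone rows and 77.3% for other autosomal rows. The order of classes by agreement between libraries is thus that of their levels.

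Above 1 RPKM by test, receptor rows were few. Over all rows of the table, limma called 18.3% above 1 RPKM (one-sided, adjusted p under 0.05), and 6 of the 1114 receptor rows (0.539%). The receptor count was 11 without replicate 1 and 3 without replicate 2, and the count over all rows was 2649 without replicate 3. Of the 6, none was interior, 1 was at an edge, 4 were in short runs and 1 was lone. Among the 424 interior rows the count by limma was 0.

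Olfr460 held the steadiest of the 6 values. Its row, on chromosome 6 from 40521387 to 40522331, stands beside taste receptor rows and held 9.46, 10.6 and 9.81 RPKM, the highest value within 5 rows in each library. It lay 2.45 above the level on the log2(RPKM + 1) scale with an adjusted p of 0.0033 in limma, and it passed in all 6 alternatives. Olfr312 on chromosome 11 held 9.92, 7.48 and 8.00 RPKM, with up to 46.9 RPKM within 5 rows. Olfr556, a class I receptor on chromosome 7 from 109818415 to 109819437, held 6.85, 5.30 and 5.06 RPKM, with every receptor row within 5 rows of it at or near 0. Olfr1504, the second row from the end of a chromosome 19 cluster, held 4.03, 4.84 and 4.91 RPKM. All 3 libraries lie close together at these 4 rows, and the adjusted p in limma was 0.0064 for Olfr312, 0.0193 for Olfr556 and 0.0369 for Olfr1504.

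The remaining rows that reached 1 RPKM in every library varied widely. Olfr1371 on chromosome 11 held 212.8, 187.2 and 22.0 RPKM, and the row after it, named for the phosphatase subunit Ppp2ca, held 4.11, 0.917 and 190.0 RPKM. The high value is thus at one row in replicates 1 and 2 and at the next in replicate 3. Olfr370, a lone row on chromosome 8, held 99.3, 18.6 and 22.4 RPKM. Olfr161, lone on chromosome 16, held 6.17, 71.9 and 70.6 RPKM, and 3 rows on, Olfr15 held 81.6, 0 and 0 RPKM. Olfr266 on chromosome 3 held 26.1, 27.7 and 4.64 RPKM, and Olfr288 on chromosome 15 held 4.66, 17.9 and 2.95 RPKM. Among these, Olfr1371 and Olfr370 passed in limma with adjusted p of 0.0288 and 0.0268. With replicate 2 left out, Olfr460 alone of the 6 passed, and each of the other 5 passed in 4 of 6 alternatives. Over those alternatives the highest adjusted p in limma was 0.0670 for Olfr312, 0.111 for Olfr370, 0.119 for Olfr556, 0.138 for Olfr1371 and 0.222 for Olfr1504.

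In cluster interiors, a high value at a row mostly stood in a single library. Olfr938, with 23 receptor rows on its nearer side in the chromosome 9 cluster, held 0, 811.4 and 0.0255 RPKM, and all other values within 5 rows of it were 0. Olfr1469 on chromosome 19 held 0, 0 and 1398.7 RPKM, and of the other rows within 5 only Olfr1474 was above 0, at 10.9 RPKM in replicate 3. No value within a natural-log difference of 0.1 of the Olfr1469 value lay within 100 rows in replicate 2, and the nearest in replicate 1 was 68 rows away. For the Olfr938 value the nearest was 69 rows away in replicate 1, with none in replicate 3. Outside that limit, the rows around Tmem225 beside the same cluster reached 1201.7, 18.7 and 976.0 RPKM. Whether those values and that of Olfr938 are related was not tested. Olfr1049, 24 rows deep on chromosome 2, held 14.4, 0 and 0 RPKM. Nearer the ends, 5 to 9 rows deep, Olfr352, Olfr1032, Olfr191 and Olfr1337 each held 16.2 to 27.9 RPKM in 1 library and 0 in the others. For each of these rows a similar value stood 1 to 6 rows away in another library, and 7 to 58 rows away in the remaining library. Beside Olfr352, for example, Olfr351 held 25.3 RPKM in replicate 2. Over all interior cases a similar value stood within 10 rows in 28.3%, and in windows 50 rows away in 31.5%. The part of displacement in these values was not tested. Olfr262 on chromosome 19 was the single interior row at 1 RPKM or more in more than 1 library, with 0, 16.1 and 15.5 RPKM.

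Of 13 rows of receptors known from work on the nose or on other tissues, 8 were listed at 0 in every library, beside 78.3% of all receptor rows. They include Olfr17 (P2), Olfr151 (M71), Olfr2 (I7) and Olfr1507 (MOR28), all classical subjects of axon targeting or ligand studies, besides Olfr16 and Olfr73. Olfr558, known from vascular smooth muscle, and Olfr1393, known from the kidney, were at 0 as well. Olfr78, a short-chain fatty acid receptor also known from the kidney and carotid body, held 0.109, 0 and 0.0324 RPKM. Olfr15, Olfr160 (M72), Olfr544 and Olfr545 (S50) each exceeded 1 RPKM in 1 library, at 81.6, 3.15, 3.41 and 13.5 RPKM, and none of the 13 passed the limma test, beside 0.539% of all receptor rows.

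Much of the machinery that receptors work with also serves other neurons. Of 18 rows for 17 signalling genes, 5 lay above 1 RPKM in limma (beside 18.3% of all rows), 8 were at that level in every library and 3 in none. Adcy3, the adenylyl cyclase of olfactory and other neuronal cilia, held 1.43, 9.18 and 6.49 RPKM, and Gnal, the Golf subunit that is also used in the striatum, held 0.818, 10.8 and 0.909 RPKM. Ric8b, a Golf exchange factor, passed with 7.56, 8.26 and 7.89 RPKM, and Pde4a, a cyclic AMP phosphodiesterase, with 22.7, 29.1 and 28.5 RPKM. Reep1, a receptor transport protein, passed at 41.0, 14.7 and 38.8 RPKM. A row named for the channel subunit Cngb1 passed on chromosome 5, while the other row of that name, on chromosome 8, held under 0.1 RPKM in each library.

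Markers of the olfactory sensory neuron itself were measured beside these. Of 10 marker rows, most of them also in the signalling list, 1 passed (beside 18.3% of all rows), 3 were under 1 RPKM in every library and none was at 0 throughout. Of the 8 granule neuron marker rows, 1 passed too, so passing this test did not tell the marker sets apart. In every library, 2 of the 10 olfactory and 4 of the 8 granule neuron rows were at 1 RPKM or more. Omp, the olfactory marker protein, held 3.14, 7.31 and 7.75 RPKM and passed in limma with an adjusted p of 0.0489, with 103.0 to 148.8 RPKM within 5 rows of it. Cnga4, a subunit of the olfactory channel, held 0, 0.229 and 0.252 RPKM, and Rtp2, a receptor transporter, 0, 0.110 and 0 RPKM. The summed level of the 10 rows was 212.4, 41.9 and 38.6 RPKM in the 3 libraries, of which the Rtp1 row gave 127.8 in replicate 1. For the 8 granule neuron rows the sums were 61.2, 262.8 and 161.9 RPKM. The part of displacement in these values was not tested.

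Factors that act in receptor choice or in the silencing of the clusters were present in part. Of 24 such rows, 8 passed in limma (beside 18.3% of all rows) and 2 were listed at 0. The enhancer-binding factor Lhx2 held 36.8, 34.7 and 32.4 RPKM and its cofactor Ldb1 38.3, 36.9 and 34.5 RPKM. Among silencing factors, the corepressor Trim28 held 49.5, 59.1 and 58.0 RPKM and the H3K9 methyltransferase Setdb1 7.68, 9.55 and 9.55 RPKM, and all 4 of these rows passed. The lamin B receptor Lbr, which ties heterochromatin to the nuclear envelope, passed at 4.04, 5.29 and 6.01 RPKM, and so did the stress-response factor Atf5 at 13.1, 12.4 and 12.4 RPKM. The heterochromatin protein row Cbx3 and the demethylase row Kdm1a were listed at 0, with at least 82.1 and 25.7 RPKM within 5 rows.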

How the data were processed

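RNA of the dentate gyrus of 3 mice was sequenced. The deposited values are RPKM. The submitters' processing notes name TopHat2, Cufflinks and mm9, while their versions, the annotation, filters and strandedness were not given in the sources used. A further 9 value columns match no listed sample and were not used. Coordinates of rows are mm9, those of start regions GRCm38.p6, and the builds were not mixed.

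Levels were taken as log2(RPKM + 1), with no filter on low values. Offsets of segments of at least 10 rows (blocks of up to 25 rows, clusters whole) from the mean of all autosomal rows, and row levels against 1 RPKM (one-sided, variance trend), were tested in R 4.3.3 by intercept-only fits of limma 3.58.1 (moderated variance, Benjamini-Hochberg over all segments or rows). Both fits were tested on simulated data. Class differences used the exact sign-flip permutation test. With few libraries, p-values rest on the spread between these libraries. At single rows that spread holds any displacement of values along the table besides differences between animals.

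Members and lists were chosen with earlier results of these data known. Named were 13 studied receptors, receptor rows at 1 RPKM or more in all libraries (up to 12, by their lowest library), the 8 interior rows with the highest single value, the 3 longest clusters with the highest of their flanking rows, the beta-globin rows, and rows of the signalling, choice and marker lists; clusters and rows outside this rule were named after their values were seen. Alternatives changed the pseudocount, level, filter, scaling, run length, edge width, block size and row order, and left out each library.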

Additional observations from a re-analysis of the deposited data

How the results depend on the processing

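Of 149 alternative values for the main results, 104 stayed within 1 SD or 1.5 times the count, 44 moved and 1 reversed. Leaving out the highest value of each class in each library, a choice made with the data in view, kept the direction of all 10 class differences, with interior minus edge at -3.15 points. Clusters that passed as lower than the mean of autosomal rows numbered 29 of 29 with a pseudocount of 0.1, upper-quartile scaling, blocks of 50 rows or any library left out. They numbered 57 of 61 with runs of 5 or more rows, 12 of 12 with runs of 20 or more, and 16 of 25 without rows listed at 0 in every library, where all 25 lay below the mean and fewer rows are tested. All segments that were lower numbered 205 with blocks of 50 rows and 318 to 335 with a library left out. When the level was 0.1 RPKM, 10 receptor rows and 6783 of all rows lay above it. Leaving out a library gave 3 to 11 receptor rows and 2649 to 4968 of all rows; without replicate 1 the receptor count was 11, without replicate 2 it was 3, and without replicate 3 all rows numbered 2649.

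For the share at 1 RPKM or more, interior minus edge was -4.74 and -1.61 points at levels of 0.1 and 5 RPKM, -2.20 and -4.01 with 3 and 10 rows left out at each edge, -4.01 with runs of 5 or more and -1.60 without rows at 0. Interior minus lone was -27.0 and -14.1 at these levels, -29.3 in the order of mm9 starts and -12.7 without rows at 0. Edge minus lone was -22.3 at 0.1 RPKM, -26.1 in mm9 order and -11.1 without rows at 0. Clusters minus flanks was -36.6 and -17.4 at the levels, -33.5 in mm9 order and -23.0 without rows at 0, and all receptor minus other rows -58.2, -33.5 and, without rows at 0, -35.7.

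For mean log2, the pseudocount of 0.1 gave -0.22, -1.59, -1.37, -2.01 and -3.49 for the same 5 differences. Order by mm9 start gave -0.11, -1.37, -1.26 and -1.32 for the first 4. Without rows at 0, interior minus edge reversed to 0.087, interior minus lone was -0.59 and all receptor minus other rows -1.35. Interior minus edge was -0.044 and -0.12 with 3 and 10 rows left out and -0.15 with runs of 5 or more, where clusters minus flanks was -1.14. Apart from changes in what is tested, the cause was not tested. No paired analysis between conditions was possible because all 3 libraries carry a single group label, and class differences were taken within each library. RPKM gives no read depth, and its limits were not assessed.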

Other observations

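Other chemoreceptor families of the autosomes were measured in the same way. Vomeronasal receptor rows, which serve pheromone detection, numbered 350, of which 244 were listed at 0 in every library, and 8.00%, 9.43% and 9.14% were at 1 RPKM or more. Their 7 clusters had 36 interior rows, of which 5.56%, 2.78% and 5.56% were at that level, and 70 edge rows at 6.19% ± 2.18 (SD, n = 3). Odorant receptor interiors differed from vomeronasal interiors by -2.82 ± 1.31 percentage points, with the same sign in 3 of 3 libraries (exact sign-flip permutation test, p = 0.25, the smallest that 3 animals allow). Taste receptors had 5.26% ± 2.63 of 38 rows and trace amine receptors 2.22% ± 3.85 of 15 rows at 1 RPKM or more, and neither formed a run of 10. Formyl peptide receptors, which include both immune and vomeronasal members, had 16.7%, 16.7% and 33.3% of 6 rows at that level.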
